A study of Mus musculus with 18 samples.

Results

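The 10 genes described here make, regulate, or accompany the thiazide-sensitive sodium-chloride cotransporter NCC of the distal convoluted tubule. They were listed by name: *Slc12a3*, which encodes NCC; the kinase genes *Wnk1*, *Wnk4*, and *Stk39*; the ubiquitin ligase genes *Klhl3* and *Cul3*; and *Pvalb*, *Trpm6*, *Kcnj10*, and *Kcnj16*. All 10 were found among the 78239 genes listed for each library, and all 10 had at least 10 counts in every library. NCC is the main route of salt reabsorption in the distal convoluted tubule. WNK kinases activate the kinase SPAK, the product of *Stk39*, which phosphorylates and activates NCC. The adaptor KLHL3 and the scaffold CUL3 form a ubiquitin ligase that marks WNK kinases for degradation, and inherited variants in the human genes for WNK1, WNK4, KLHL3, or CUL3 cause hypertension with high potassium, while loss of NCC or of KCNJ10 causes salt wasting.

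The mice were wild-type CD-1 mice, an outbred strain, studied at 6 wk of age. Dams of the low-protein (LP) groups ate a diet with 8% protein, dams of the normal-protein (NP) groups a diet with 18% protein, and offspring of both were weaned to the NP diet at week 3. The male groups held 5 LP and 5 NP mice and the female groups 5 LP and 3 NP mice, with 1 library per mouse made from a piece of the left kidney. All 4 groups had received 2 injections of cationic ferritin, and the interval from the last of them to collection of the kidneys was 90 min in males and 24 h in females, so sex and this interval cannot be told apart. Diet was given to the dams, and which offspring shared a litter is not given in the labels. Each mouse was therefore treated as independent, in the models and in the permutations. If littermates resemble each other, the p-values for diet are too small.

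Each library had between 14050486 and 23562411 reads on genes. Levels are given as transcript abundance (TPM), in which counts are scaled by transcript length and library size so that genes can be compared, and differences as log2 fold changes with the standard error (SE) or 95% interval. A gene was called changed at an adjusted p under 0.05. Libraries LP female 1, LP female 2, and NP female 3 stood apart from the other females: 5 interferon response genes summed to between 60.1 and 102 TPM in these 3 libraries and to between 393 and 1906 TPM in the other 5, and 5 glucocorticoid response genes to between 164 and 293 TPM against 668 to 958 TPM. In males the interferon sums were between 355 and 672 TPM and the glucocorticoid sums between 303 and 559 TPM. The glucocorticoid sums of males thus lay between those of the 3 libraries and those of the other 5 females. The differences of the 10 genes that rest on females were also computed without these libraries. A sex difference computed so compares males with females that all had higher glucocorticoid sums. In whole tissue, fewer cells of a type and less RNA per cell cannot be told apart.

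By mean level over the 18 libraries, *Kcnj16* came first, at 695 TPM, followed by *Slc12a3* at 245 TPM. *Wnk4* averaged 93.9 TPM, *Wnk1* 79.4 TPM, *Pvalb* 69.3 TPM, and *Cul3* 58.7 TPM. Below them stood *Kcnj10* at 39.0 TPM, *Stk39* at 23.2 TPM, *Klhl3* at 15.2 TPM, and *Trpm6* at 6.57 TPM. *Kcnj16* was above *Slc12a3*, *Slc12a3* above *Wnk4*, *Stk39* above *Klhl3*, and *Klhl3* above *Trpm6* in 18 of 18 libraries. The middle of the order was not settled: *Wnk4* was above *Wnk1* in 10 libraries, *Wnk1* above *Pvalb* in 12, and *Pvalb* above *Cul3* in 7. The order also depended on the transcript length used, here that of the canonical transcript. With the length of all annotated exons, *Stk39* averaged 12.4 TPM and *Klhl3* 23.5 TPM, the reverse order. *Slc12a3* and *Wnk4* then averaged 145 and 143 TPM over all libraries, and 101 and 107 TPM in males.

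**Figure D1:**
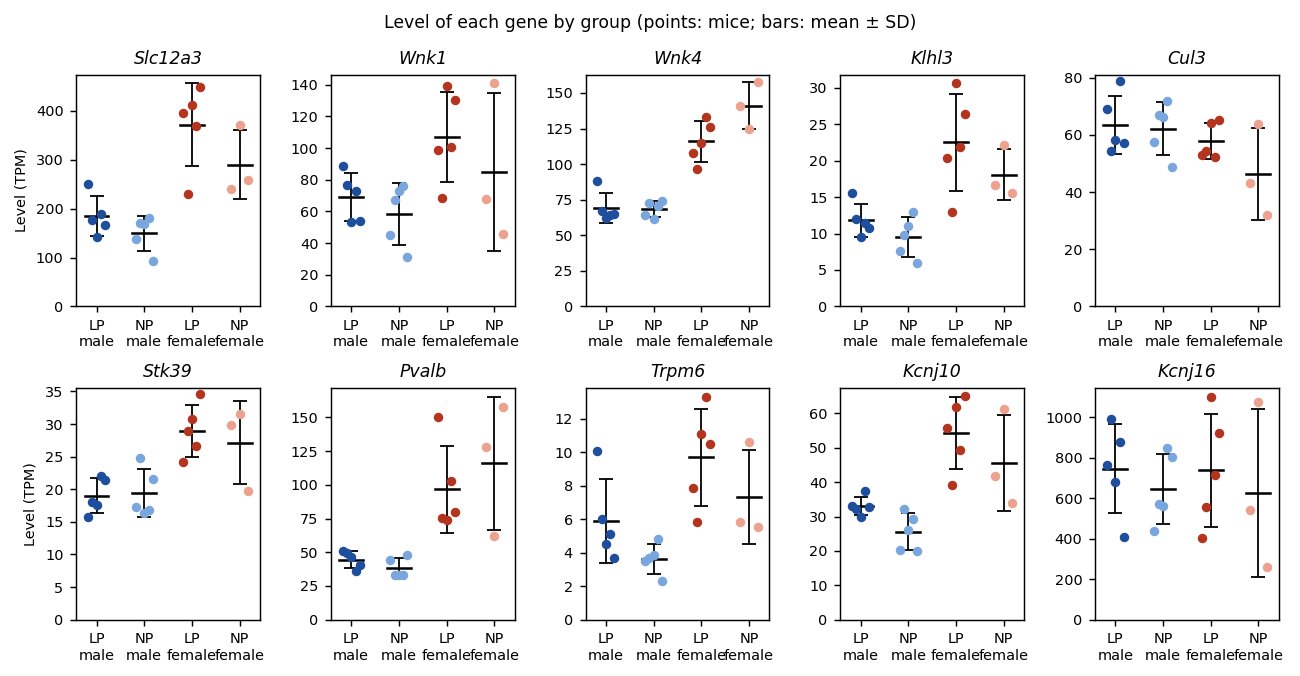
Level in TPM (y axis, from 0, a scale of its own for each gene) of the 10 genes by diet and sex; points are mice, and bars show the mean ± SD of each group. Males and females do not overlap for *Wnk4* and *Pvalb*, and LP and NP mice of the same sex overlap for each of the 10 genes.

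Promoter sequence is shown for *Slc12a3*, for *Klhl3*, whose level followed that of *Slc12a3* most closely, and for *Cul3*, whose level differed between the sexes in the opposite direction. Each run is the 250 bases before the transcription start on the gene's own strand, from RefSeq on GRCm38.p6, at chr8:94328958-94329207 for *Slc12a3* (plus strand), chr13:58113648-58113897 for *Klhl3* (minus strand), and chr1:80340691-80340940 for *Cul3* (minus strand). Capitals mark the letters of a TATA box, TATAAA.
Slc12a3: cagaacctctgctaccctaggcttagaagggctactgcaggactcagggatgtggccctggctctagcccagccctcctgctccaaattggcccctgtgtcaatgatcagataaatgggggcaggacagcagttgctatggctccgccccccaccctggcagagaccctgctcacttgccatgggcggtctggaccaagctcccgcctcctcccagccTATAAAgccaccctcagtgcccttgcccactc
Klhl3: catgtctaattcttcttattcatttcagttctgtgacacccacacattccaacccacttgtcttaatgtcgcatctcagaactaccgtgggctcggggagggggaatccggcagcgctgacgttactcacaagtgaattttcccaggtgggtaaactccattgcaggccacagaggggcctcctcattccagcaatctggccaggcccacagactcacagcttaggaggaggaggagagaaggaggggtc
Cul3: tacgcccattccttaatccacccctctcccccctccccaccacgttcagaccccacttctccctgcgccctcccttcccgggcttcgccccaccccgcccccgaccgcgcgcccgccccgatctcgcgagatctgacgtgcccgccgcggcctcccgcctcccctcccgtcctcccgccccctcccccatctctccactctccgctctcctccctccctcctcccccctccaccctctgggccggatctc
In the run of *Slc12a3* the TATAAA begins 32 bases before the start, and neither *Klhl3* nor *Cul3* holds these letters in its run. TATAAA on either strand was present in 13.6% of 32851 promoter windows of all genes, each running from 250 bases before to 50 bases after a start. The runs also differ in base composition: G and C make up 61.2% of the *Slc12a3* run, 53.2% of the *Klhl3* run, and 73.2% of the *Cul3* run, against a median of 52.4% over all windows. CG pairs number 3 in *Slc12a3*, 6 in *Klhl3*, and 23 in *Cul3*, against a median of 6. The half-site TGTTCT bound by steroid hormone receptors, searched on both strands, was present in 2 of the 14 windows listed for the 10 genes, one of *Kcnj10* and one of *Pvalb*, and in 19% of all windows. AGGTCA and GTTAAT, half-sites of nuclear receptors and of the tubular factor HNF1, were each present in 1 of the 14 windows, which belonged to *Kcnj16*, and in 16.3% and 7.1% of all windows.

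The diet comparison addressed whether maternal protein restriction left a lasting change in the kidney of the adult offspring. None of the 10 genes was called changed between LP and NP mice in either sex by edgeR's quasi-likelihood test. In males, 13181 genes were tested and 0.0379% were called, all of them lower in LP. In females, 13510 genes were tested and 0.0% were called. On the TPM scale the LP and NP mice overlapped for 10 of the 10 genes in both sexes, where 0.592% of all genes in males and 2.31% in females showed no overlap. The unadjusted p was under 0.05 for 506 genes in males and 564 in females, and DESeq2 called 19 and 9 genes, with none of the 10 among them.

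*Slc12a3* (ENSMUSG00000031766, GRCm39 chr8:95055829-95094170) stood at 251, 177, 141, 189, and 167 TPM in LP males and at 137, 170.2, 169, 181, and 93.4 TPM in NP males. LP females had 396, 230, 413, 369.9, and 449 TPM, and NP females 239.7, 370.4, and 259 TPM. In both sexes the diet groups overlapped. The difference of LP minus NP was 0.27 on the log2 scale in males (95% interval -0.07 to 0.62, adjusted p = 1) and 0.27 in females (-0.25 to 0.78, adjusted p = 0.892). Exact permutation of the diet labels gave p = 0.222 in males and p = 0.375 in females, where the smallest possible values were 0.00794 and 0.0179. Without the 3 libraries that stood apart, the difference in females was 0.47 (SE 0.18, unadjusted p = 0.0378, adjusted p = 0.972).

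*Kcnj10*, a basolateral potassium channel that sets the membrane voltage of distal convoluted tubule cells, had the smallest unadjusted p of the 10 genes in males. Its levels were 33.2, 32.1, 30.0, 37.3, and 32.7 TPM in LP males and 20.4, 32.2, 26.1, 29.3, and 19.9 TPM in NP males.
The groups overlapped narrowly, since only NP male 2 lay above any LP male. As normalized counts, scaled by the size factors of DESeq2, they did not overlap: between 1384 and 1512 in LP males and between 965 and 1338 in NP males. The share of all genes that do not overlap on this scale was not computed. The difference in males was 0.34 on the log2 scale (SE 0.10, 95% interval 0.12 to 0.57, unadjusted p = 0.00578, adjusted p = 1), and the exact permutation p was 0.00794, the smallest this design allows. In females the levels were 55.9, 39.1, 61.8, 49.4, and 65.2 TPM in LP and 41.7, 61.3, and 33.9 TPM in NP mice, which overlapped, and the log2 fold change was 0.17 (-0.26 to 0.61), or 0.22 (SE 0.17) without the 3 libraries that stood apart.

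*Trpm6*, the apical magnesium channel of the distal convoluted tubule, had the widest difference between male diet groups. LP males had 10.1, 5.99, 4.54, 5.12, and 3.66 TPM, and NP males 3.53, 3.7, 3.86, 4.84, and 2.33 TPM. LP male 1 was the highest of the 10 males. The LP males at 5.99 and 5.12 TPM also lay above every NP male, and those at 4.54 and 3.66 TPM lay within the NP range.
The log2 fold change was 0.65 (SE 0.25, 95% interval 0.12 to 1.19, unadjusted p = 0.0211, adjusted p = 1), with an exact permutation p of 0.0794. In females, LP mice had 7.88, 5.83, 11.1, 13.3, and 10.5 TPM and NP mice 5.85, 10.6, and 5.56 TPM, a log2 fold change of 0.34 (-0.31 to 1.00). Without the 3 libraries it was 0.56 (SE 0.25, unadjusted p = 0.0643, adjusted p = 0.972).

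*Wnk4*, the WNK kinase found mainly in the distal nephron, had nearly the same level in LP males (69.3 ± 10.7 TPM, SD, n = 5) and NP males (68.7 ± 5.58 TPM, n = 5). In females it was 108, 96.7, 115, 133, and 126 TPM in LP and 141, 125, and 158 TPM in NP mice. LP females were thus mostly below NP females, with overlap in 2 LP mice. The log2 fold change in females was -0.42 (SE 0.19, 95% interval -0.85 to 0.02, unadjusted p = 0.059, adjusted p = 0.886), and it was -0.08 (SE 0.18) without the 3 libraries that stood apart, which include the lowest LP and the highest NP value. In its exons *Wnk4* shares 138 bases with *Coa3* on the opposite strand, which had between 859 and 2058 counts, and the counts do not separate the strands.

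*Pvalb* encodes parvalbumin, a calcium buffer of the early distal convoluted tubule. Its levels in females were 150.4, 75.6, 74.0, 103, and 80.2 TPM in LP and 128, 61.9, and 158 TPM in NP mice, with a log2 fold change of -0.43 (-1.27 to 0.41), and the groups overlapped. The *Pvalb* difference was -0.15 (SE 0.36) without the 3 libraries that stood apart and -0.79 (SE 0.22, unadjusted p = 0.00578, adjusted p = 0.17) with a score of medulla markers in the model, so its size depended on both. In males the log2 fold change was 0.17 (-0.22 to 0.55). The remaining genes had log2 fold changes between -0.07 and 0.29 in males (*Stk39* and *Klhl3*) and between 0.01 and 0.30 in females (*Stk39* and *Wnk1*). Without the 3 libraries the female values of these genes ran from 0.02 for *Stk39* (SE 0.15) to 0.47 for *Klhl3* (SE 0.17, unadjusted p = 0.0278, adjusted p = 0.972), where *Klhl3* had been 0.22 with all females.

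The difference between the sexes in the effect of diet was tested by an interaction term in a model of all mice. None of the 10 genes was called, and 2 of 12665 genes (0.0158%) were; 509 genes had an unadjusted p under 0.05, and DESeq2 called 4. *Pvalb* had a female minus male difference of diet effects of -0.61 (SE 0.43, adjusted p = 0.977), and *Wnk4* one of -0.40 (SE 0.22, unadjusted p = 0.0863, adjusted p = 0.977). Without the 3 libraries that stood apart these became -0.33 (SE 0.40) for *Pvalb* and -0.06 (SE 0.21, unadjusted p = 0.78) for *Wnk4*. For *Slc12a3* the interaction was -0.01, with a 95% interval of -0.59 to 0.57.

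**Figure D2:**
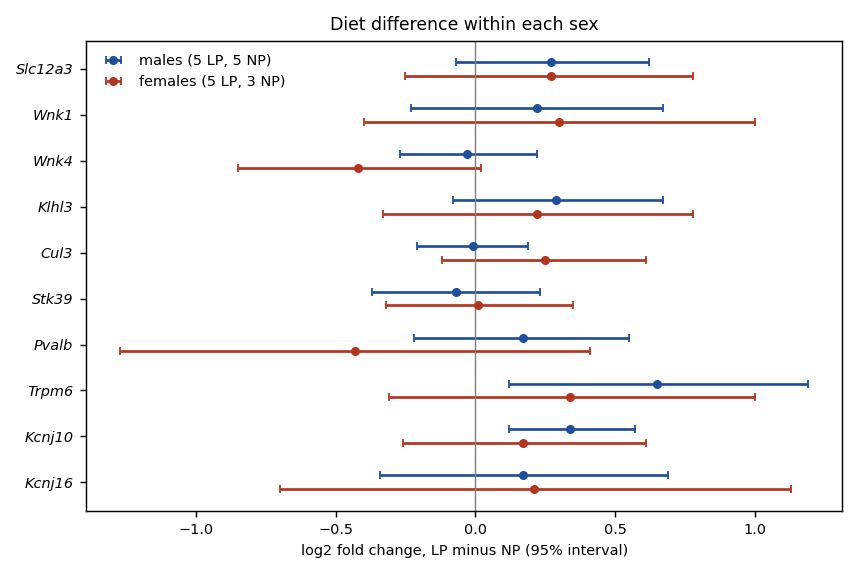
Log2 fold change of LP minus NP (x axis) with its 95% interval for the 10 genes (y axis), in males (blue, 5 LP and 5 NP mice) and females (red, 5 LP and 3 NP mice). The intervals of *Trpm6* and *Kcnj10* in males lie above 0 before adjustment for the number of genes, and the other intervals include 0.

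Of 44 further genes of the same pathway and segment, grouped in 6 lists, none was called by edgeR in the diet comparison of either sex or in the interaction, and 1 gene in each of the 3 comparisons had an unadjusted p under 0.05. The lists held kinases, scaffolds, and phosphatase regulators of NCC; ubiquitin ligases of NCC and WNK kinases; hormone receptors; basolateral transport; magnesium handling; and other markers of the distal convoluted tubule. The 5 other markers had a median log2 fold change of 0.22 in males (range 0.13 to 0.60) and 0.38 in females (range -0.19 to 0.46). For the 10 genes themselves the medians were 0.20 in males and 0.22 in females, and over all genes tested they were 0 and -0.01. Markers of some other cells were also higher in LP males without a call. For the connecting tubule, 5 of 5 genes had log2 fold changes of 0.26 to 0.92 (median 0.58, with 3 at an unadjusted p under 0.05). For podocytes, 4 of 4 genes had 0.23 to 0.42 (median 0.28, with 1). Other medians in LP males were 0.17 for proximal tubule, 0.11 for intercalated cell, 0.09 for endothelial, and 0.03 for thick ascending limb genes. They were -0.06 for principal cell and -0.24 for medulla genes. The connecting tubule genes summed to between 2398 and 3891 TPM in LP males and between 2140.1 and 2558 TPM in NP males, and the podocyte genes to between 58.9 and 103 TPM and between 56.3 and 80.8 TPM. In females the medians were 0.18 for the connecting tubule (range -0.63 to 0.75) and 0.12 for podocytes (range -0.11 to 0.26). The medulla median in females was -0.34 (range -1.41 to 0.27). The part of these cells in the diet differences of the 10 genes was not tested.

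Males and females, with the diets weighted equally, differed in most of the 10 genes. In males 7 genes were lower and 1, *Cul3*, was higher. Of all 12665 genes tested 38.7% were called, 19.8% lower and 18.9% higher in males, so calls between the sexes were common across genes. The median log2 fold change was -0.69 over the 10 genes and -0.05 over all genes tested.

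The transporter *Slc12a3* was 167 ± 40.5 TPM (SD, n = 10) in males and 341 ± 85.4 TPM (n = 8) in females. Only LP male 1, at 251 TPM, reached the range of the females. The log2 fold change of males minus females was -0.86 (SE 0.14, adjusted p = 9.53e-05), which is 1.82-fold lower in males. It was -0.86 (SE 0.19) among NP mice alone, -0.85 (SE 0.18) among LP mice alone, and -0.92 (SE 0.13) without the 3 libraries that stood apart.

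Among the kinases, *Wnk4* (GRCm39 chr11:101151246-101168235) was 61.3 to 88.2 TPM in males and 96.7 to 158 TPM in females. The sexes did not overlap, which in this direction held for 3.55% of all genes. The difference of males minus females was -0.79 (SE 0.11, adjusted p = 2.76e-05), and exact permutation within diets gave p = 7.09e-05, the smallest possible. The *Wnk4* difference was -0.73 (SE 0.10) without the 3 libraries. *Stk39* ranged from 15.7 to 24.8 TPM in males and from 19.8 to 34.6 TPM in females, a difference of -0.42 on the log2 scale (SE 0.10, adjusted p = 0.00292). The *Stk39* call was lost among NP mice alone (-0.37, adjusted p = 0.176) and with a score of medulla markers in the model (-0.22, adjusted p = 0.0599), and the difference was -0.51 (SE 0.11, adjusted p = 0.00217) without the 3 libraries. *Wnk1* was not called: it ranged from 31.1 to 88.8 TPM in males and from 45.6 to 141 TPM in females, a difference of -0.44 (SE 0.19, adjusted p = 0.0699). It was called without the 3 libraries that stood apart (-0.66, adjusted p = 0.0103), without LP female 2 alone (adjusted p = 0.0327), and without NP female 3 alone (adjusted p = 0.0282). *Wnk1* counts combine the long kinase with the short kidney-specific form made in the distal convoluted tubule, so these forms were not told apart.

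The ubiquitin ligase genes moved in opposite directions. *Klhl3*, the adaptor, had 15.5, 12, 9.47, 11.4, and 10.7 TPM in LP males and 7.67, 9.84, 11, 13, and 6.01 TPM in NP males, against 20.4, 13, 30.6, 21.9, and 26.4 TPM in LP females and 16.6, 22.1, and 15.5 TPM in NP females. Of the males, only LP male 1 reached the range of the females. The difference was -0.81 on the log2 scale (SE 0.15, adjusted p = 4e-04), and -0.92 (SE 0.14) without the 3 libraries. *Cul3*, the scaffold, had 68.9, 54.2, 58.1, 78.7, and 57.0 TPM in LP males, 57.4, 67.1, 66.2, 71.8, and 48.7 TPM in NP males, 53.0, 54.5, 64.1, 52.1, and 65.3 TPM in LP females, and 43.3, 63.7, and 32.1 TPM in NP females. The sexes overlapped widely on this scale, and the difference was 0.41 on the log2 scale (SE 0.08, adjusted p = 0.000715), 1.33-fold higher in males. It was 0.31 (adjusted p = 0.0101) without the 3 libraries that stood apart, of which NP female 3 had the lowest level of *Cul3*. *Cul3* transcripts per *Klhl3* transcript ranged from 4.45 to 8.1 in males and from 2.07 to 4.2 in females, so these ratios did not overlap. How many other genes would separate the sexes when divided by *Klhl3* was not computed. The levels are those of whole tissue, so the ratio is not one within the distal convoluted tubule.

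Of the genes for calcium and magnesium handling, *Pvalb* showed the largest difference of the 10 genes. It ranged from 33.1 to 50.8 TPM in males and from 61.9 to 158 TPM in females, without overlap, although the sexes overlapped on normalized counts. The difference was -1.27 on the log2 scale (SE 0.21, adjusted p = 0.00017), 2.41-fold lower in males, and it was -0.96 (SE 0.19, adjusted p = 0.00127) without the 3 libraries that stood apart. *Trpm6* ranged from 2.33 to 10.1 TPM in males and from 5.56 to 13.3 TPM in females, a difference of -0.74 (SE 0.20, adjusted p = 0.00688), and its call was lost among LP mice alone (-0.58, adjusted p = 0.185). The *Trpm6* difference was -0.91 (SE 0.20, adjusted p = 0.00262) without the 3 libraries.

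The potassium channel subunits, which join in one basolateral channel, differed from each other. *Kcnj10* ranged from 19.9 to 37.3 TPM in males and from 33.9 to 65.2 TPM in females, a difference of -0.65 on the log2 scale (SE 0.10, adjusted p = 5.15e-05), or -0.75 (SE 0.09) without the 3 libraries. *Kcnj16* ranged from 409.9 to 989 TPM in males and from 259 to 1100 TPM in females, a log2 fold change of 0.20 (95% interval -0.30 to 0.69, adjusted p = 0.536), which became -0.12 without the 3 libraries that stood apart. *Kcnj16* transcripts per *Kcnj10* transcript averaged 24.3 ± 7.6 (SD, n = 10) in males and 13.2 ± 3.97 (n = 8) in females. *Kcnj16* is also expressed in the proximal tubule, so its whole-kidney level is not a measure of the distal convoluted tubule alone.

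**Figure D3:**
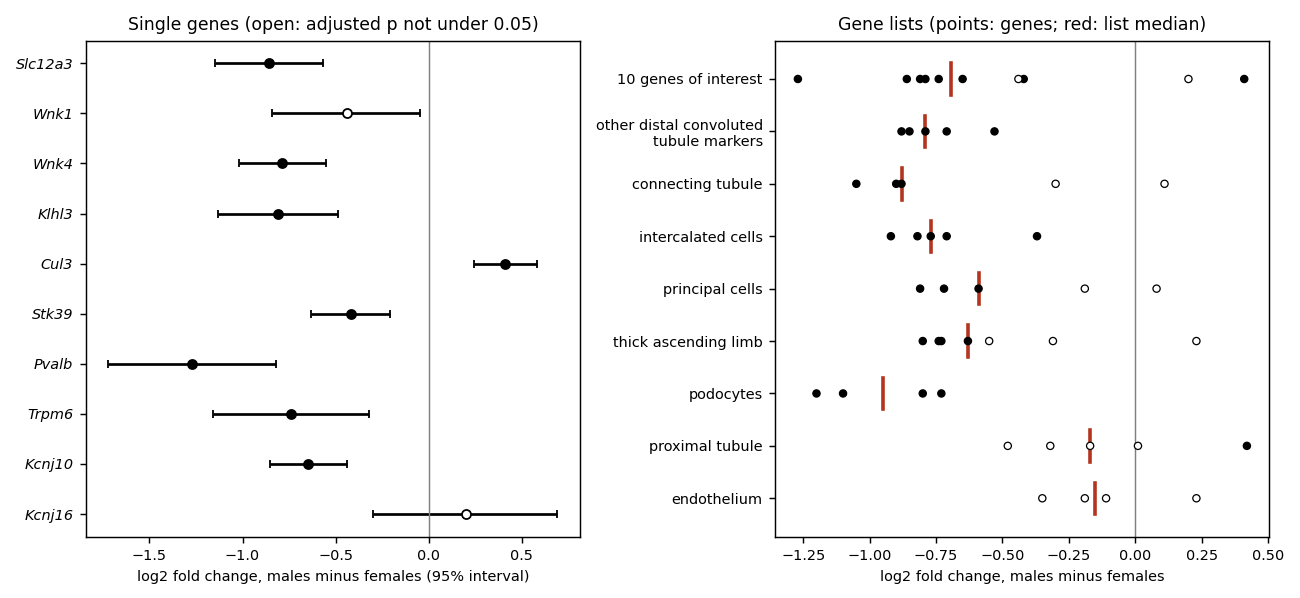
Left, log2 fold change of males minus females (x axis) with its 95% interval for the 10 genes; right, the same difference for the genes of 9 lists, with points for genes and red bars for list medians. Filled points have an adjusted p under 0.05: 8 of the 10 genes and 5 of 5 other markers of the distal convoluted tubule are filled. Of all genes tested, 38.7% had such a value.

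Within each diet, fewer mice were compared. NP males were below NP females without overlap for 6 genes (*Slc12a3*, *Wnk4*, *Klhl3*, *Pvalb*, *Trpm6*, and *Kcnj10*), where 13.3% of all genes showed the same. LP males were below LP females without overlap for 4 genes (*Wnk4*, *Stk39*, *Pvalb*, and *Kcnj10*), against 9.27% of all genes. *Wnk4*, *Pvalb*, and *Kcnj10* were thus separated by sex in both diets on the TPM scale. On normalized counts *Pvalb* overlapped between NP males and NP females and *Kcnj10* between LP males and LP females, and only *Wnk4* of these was separated in both diets on both scales. How many of all genes separate on normalized counts was not computed.

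The 5 other markers of the distal convoluted tubule were all lower in males, with a median log2 fold change of -0.79, although *Emx1* (-0.53) was no longer called without the 3 libraries that stood apart (-0.19, adjusted p = 0.393). *Tmem52b* had a log2 fold change of -0.79 (adjusted p = 9.98e-06), the transcription factor gene *Tfap2b* one of -0.71 (adjusted p = 6.31e-05), and the transcription factor gene *Sall3* one of -0.85 (adjusted p = 0.000145). Of the kinases, scaffolds, and phosphatase regulators, 10 of 11 were tested, and 1 was higher and 2 were lower in males. Over all genes tested 18.9% were higher and 19.8% lower, so this list was not clearly above those shares. *Sgk1*, an aldosterone-induced kinase that restrains the degradation of NCC, was lower by the largest amount (-1.83, SE 0.28, adjusted p = 5.81e-05), and *Ppp1r1a*, an inhibitor of protein phosphatase 1, was also lower (-0.93, adjusted p = 0.00221), while *Wnk2* was higher (0.79, adjusted p = 0.00668). *Sgk1* also belongs to the glucocorticoid response list that set the 3 libraries apart, and without them its difference was -2.20 (SE 0.16). *Ppp3ca* of this list, not called with all libraries, was higher in males without the 3 libraries (0.39, adjusted p = 0.00621).

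Of the 6 ubiquitin ligase genes, 3 were higher and none lower in males with all libraries. For this and the next lists, the shares over all genes tested were 18.9% higher and 19.8% lower. The 3 higher genes were *Klhl2* (0.88, adjusted p = 1.49e-06), the closest relative of *Klhl3*, and the cullin regulators *Cops5* (0.38, adjusted p = 0.000166) and *Cand1* (0.42, adjusted p = 0.0053). Without the 3 libraries that stood apart, *Nedd4l* of this list was also called, lower in males (-0.48, adjusted p = 0.00313). Of the 6 hormone receptor genes, 3 were lower: the mineralocorticoid receptor gene *Nr3c2* (-0.82, adjusted p = 3.87e-05), *Hsd11b2* (-0.84, adjusted p = 0.000176), whose enzyme keeps glucocorticoids from that receptor, and the calcium-sensing receptor gene *Casr* (-0.55, adjusted p = 0.0282). Of the 10 magnesium handling genes, *Slc41a3* was lower (-0.79, adjusted p = 0.00873) and *Cnnm2* higher (0.31, adjusted p = 0.036), a call that was lost without the 3 libraries (0.20, adjusted p = 0.164). *Egf* (-0.89, adjusted p = 1.46e-05) and *Umod* (-0.89, adjusted p = 0.000991), not called with all libraries, were lower in males without the 3 libraries. The share of all genes called in that setting is not given here.

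Markers of neighbouring segments differed between the sexes as well. In males, 3 of 5 connecting tubule genes, 5 of 5 intercalated cell genes, 3 of 5 principal cell genes tested, 4 of 7 thick ascending limb genes, and 4 of 4 podocyte genes were lower, and none of these was higher. Over all genes tested 19.8% were lower in males. The connecting tubule genes summed to between 2140.1 and 3891 TPM in males and between 4585 and 7482 TPM in females. For podocytes the sums were 56.3 to 103 TPM and 90.8 to 238 TPM. Of 5 proximal tubule genes 1 was higher in males, with sums of 3655 to 5444 TPM in males and 2463 to 5233 TPM in females, and 0 of 4 endothelial genes were called by edgeR, with 0 at an unadjusted p under 0.05. Medulla genes summed to between 187 and 474 TPM in males and between 180.4 and 700.2 TPM in females. The part of these segments in the differences of the 10 genes was not tested. Skeletal muscle markers summed to at most 4.27 TPM in any library, adrenal cortex markers to at most 3.32 TPM, and adipocyte markers to between 0 and 62.5 TPM.

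After subtraction of the group means, *Klhl3* was the gene whose level followed *Slc12a3* most closely over the 18 libraries, among 12664 genes (Pearson r = 0.90, and 0.80 without the 2 libraries farthest from the median of *Slc12a3*). The next were *Steap2* (r = 0.87), *Zfp871* (0.87), *Rnf152* (0.85), and *Insrr* (0.84). Of the other genes described here, *Wnk1* (0.81), *Trpm6* (0.79), and *Kcnj10* (0.71) followed *Slc12a3*. *Wnk4* (0.11), *Kcnj16* (0.12), *Pvalb* (-0.20), and *Stk39* (-0.42) did not, and *Cul3* (0.48) lay between. Without the same 2 libraries r was 0.7 for *Wnk1* and for *Trpm6*, 0.52 for *Kcnj10*, and 0.46 for *Cul3*. *Kcnj10* then lay close to *Cul3*. *Klhl3* transcripts per *Slc12a3* transcript were 0.0636 ± 0.00472 (SD, n = 10) in males and 0.0611 ± 0.00712 (n = 8) in females, so the sexes overlapped in this ratio. *Cul3* transcripts per *Slc12a3* transcript ranged from 0.275 to 0.521 in males and from 0.124 to 0.237 in females. The share of all genes that would separate the sexes in this way was not computed.

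**Figure D4:**
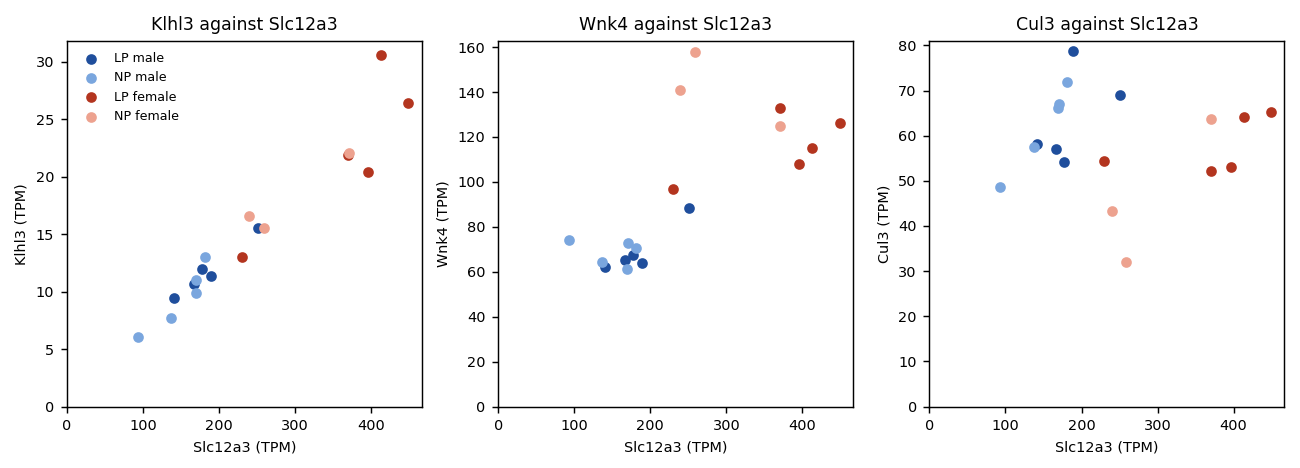
Level of *Klhl3*, *Wnk4*, and *Cul3* (y axes, TPM) against that of *Slc12a3* (x axes, TPM) in 18 mice, coloured by group; all axes start at 0. Mice with more *Slc12a3* had more *Klhl3* in both sexes, *Wnk4* falls into a male band of 61.3 to 88.2 TPM and a female band of 96.7 to 158 TPM, and *Cul3* per *Slc12a3* is higher in every male than in any female. How many other genes would separate in this way was not computed.

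*Pvalb* varied with other genes than *Slc12a3* did. Those most like it were *Gm44442* (r = 0.95), *Dgcr6* (0.94), *Txn2* (0.93), *Ccdc107* (0.93), and *Gm30025* (0.93). Of the genes described here *Wnk4* had r = 0.67, only at rank 1434 of 12664 genes, and *Cul3* r = -0.81. These correlations can share effects of library depth and transcript length, which was not tested, and they are given as a description. A transcript-length index, the median log2 deviation of the genes with the longest transcripts minus that of the genes with the shortest, ran from -0.45 to 0.35 in males and from -0.63 to 0.47 in females. The 3 females with the highest *Pvalb*, NP female 3, LP female 1, and NP female 1, had the 3 lowest indices among females, -0.63, -0.21, and -0.36. NP male 5 and NP male 1, which had the lowest *Slc12a3* among males, 93.4 and 137 TPM, had the lowest male indices, -0.45 and -0.26, and were also lowest in *Wnk1* and *Klhl3*. These mice were picked by their levels, and a correlation of the index with these genes over all libraries was not computed. With the index in the model, an alternative chosen after the data had been seen, the sex difference was -0.91 for *Slc12a3*, -1.08 for *Pvalb*, and -0.50 for *Wnk1* (adjusted p = 0.0017), and the diet difference of *Pvalb* in females was 0.04. NP female 3 also had the highest share of reads not counted on 1 gene, 36.1%, and of mitochondrial reads, 16.5%.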

How the data were processed

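A piece of the left kidney of each mouse gave the RNA, and poly(A)-selected, non-directional libraries were sequenced. Per the submitters' processing notes and the methods, the authors removed low-quality reads, aligned the rest to GRCm39 with STAR, and deposited raw counts of reads per gene. The counts taken without regard to strand were used. Reads not counted on 1 gene, 28.6% to 36.1% of each library, were left out. Names, positions, and lengths came from GENCODE mouse release M39.

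A minimum of 10 counts in each library entering a comparison was required, and genes were tested by edgeR 4.0.16 (quasi-likelihood test, TMM normalization, Benjamini-Hochberg adjustment over all genes tested). Diets were compared within each sex, and the interaction and the sex difference in a model of the 4 groups. DESeq2 1.42.0 and limma 3.58.1 served as alternatives. TPM values used the canonical transcript length. Single genes were also compared by exact two-sided permutation on log2 normalized counts (scaled by the size factors of DESeq2), permuting within diets for the sexes. The fits were tested on simulated data.

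The deviations of same-numbered LP and NP libraries from their group means had a median correlation of -0.155 in males and -0.438 in females, so the comparisons were unpaired. The 10 genes and the lists were chosen with earlier results of these data known. Other genes named are those of the 6 pathway and segment lists with an adjusted p under 0.05, at most 3 per list and comparison, the 5 most like *Slc12a3*, and the 5 most like *Pvalb*. *Coa3* was named for its overlap with *Wnk4*, after its values were seen. *Emx1*, *Nedd4l*, *Egf*, *Umod*, and *Ppp3ca* were named for calls that changed without 3 libraries, also after their values were seen. The genes of the lists were refitted without those libraries after the data had been seen. Some genes of the lists are not reported here.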

Additional observations from a re-analysis of the deposited data

Results flagged for a closer look

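*Wnk4* in LP male 1, at 88.2 TPM, was flagged as far from the other LP males, which lay between 62.0 and 67.3 TPM. The gap to the nearest of them was 0.8 of the range of the group. In all, 30 groups of 5 libraries were examined in this way, and chance flags about 1 in 20. LP male 1 also had the highest *Slc12a3* and *Trpm6* of the 10 males.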

How the results depend on the processing

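None of the 10 genes was called in the diet or interaction comparisons under any alternative tried. Between the sexes 8 were called in the main fit, where 38.7% of all genes were. The count was 7 in NP mice alone, 7 in LP mice alone, and 7 with medulla markers in the model. It was 6 with at least a 1.5-fold change and 9 with the length index. For the medulla and length index models the number of all genes called is not given here, so those counts stand without a background. Numbers of genes called in the whole table moved more. In males they were 9 with no filter on low counts, 19 with DESeq2, 2 with the replicate block, and 1 with all 4 groups in 1 model. In females they were 3 with no filter, 9 with DESeq2, 2 with all 4 groups in 1 model, and 1 without the 3 libraries that stood apart. For the interaction they were 4 with DESeq2, 7 with limma-voom and sample quality weights, 0 with the replicate block, and 0 without the 3 libraries. Between the sexes they were 4900 of 12665 genes in the main fit and 2370 of these 12665 with at least a 1.5-fold change. They were 1954 in NP mice alone and 2505 in LP mice alone, fits whose own totals are not given here. On normalized counts, 1 of the 10 genes did not overlap between LP and NP males (0 on TPM) and 1 between the sexes (2 on TPM). The share of all genes without overlap was computed on TPM only. Leaving out 1 library at a time gave 2 to 6 genes in males, 0 to 2 in females, 0 to 4 for the interaction, and 4440 to 5314 between the sexes, with 8 to 9 of the 10 genes called in the last.

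Differences that were not called changed sign, most of them near 0 and some not (*Pvalb* at -0.43 and *Kcnj16* at 0.21 in females, the interaction of *Trpm6* at -0.32 and of *Kcnj10* at -0.17, and the sex difference of *Kcnj16* at 0.20), and the cause was not tested. With limma-voom, *Wnk4* was 0.02 and *Stk39* 0.06 in males, and the interaction was 0.37 for *Slc12a3*, 0.29 for *Klhl3*, -0.08 for *Stk39*, 0.24 for *Trpm6*, and 0.04 for *Kcnj10*. With the replicate block, *Stk39* was -0.06 in females and the interaction of *Kcnj16* -0.02. With the length index, *Stk39* was -0.06, *Pvalb* 0.04, and *Kcnj16* -0.07 in females, and the interaction of *Wnk1* -0.08, and it was -0.01 with medulla markers in the model. The interaction of *Slc12a3* was 0.04 with no filter, 0.02 with filterByExpr, 0.01 with DESeq2's size factors, and 0.01 with DESeq2. Without the 3 libraries it was 0.18, that of *Klhl3* was 0.17, and the sex difference of *Kcnj16* was -0.12. Leaving out 1 library turned the diet difference of *Cul3* (-0.07 to 0.03), *Stk39* (-0.13 to 0.01), and *Wnk4* (-0.11 to 0.04) in males, of *Kcnj16* (-0.09 to 0.73), *Pvalb* (-0.77 to 0.01), and *Stk39* (-0.07 to 0.10) in females, and the interaction of *Kcnj16* (-0.27 to 0.53), *Klhl3* (-0.20 to 0.07), *Slc12a3* (-0.14 to 0.13), *Stk39* (-0.01 to 0.14), and *Wnk1* (-0.14 to 0.49).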
